A study of Mus musculus with 2 samples.

Results

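The imprinted Meg3 to Mirg region of mouse chromosome 12 was examined through 60 mature microRNAs, taken by name from the region, of the 1915 microRNA names in the larger of 2 deposited tables. All 60 names stood in that table and 29 of them in the smaller one, which lists 484 names. The libraries were made from small RNA of whole liver from female C57BL/6 mice, aged 8 to 10 weeks at the start, in a short-term alcohol feeding model. Both groups were accustomed to the control Lieber-DeCarli liquid diet for 5 days. The ethanol-fed group then had the same diet with 5% (v/v) ethanol for 10 days, and the pair-fed group an isocaloric control diet. On day 16 the ethanol-fed group received 6 g/kg ethanol by gavage and the pair-fed group isocaloric dextrin-maltose, and livers were taken 9 h later. The protocol gives 10 days on ethanol, whereas the design statement gives 16. Each table, called experiment 1 and experiment 2 below, holds 1 ethanol-fed and 1 pair-fed library. The labels list 1 sample per condition, and the animals or pools behind each library are not given in the sources used here. Every comparison is therefore between libraries, not conditions, with no spread between animals and no test. The question was whether these microRNAs differed in level between ethanol-fed and pair-fed liver.

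The region is part of the Dlk1-Dio3 imprinted domain. On the maternal chromosome it gives rise to long noncoding RNAs, namely Meg3, the antisense transcript of the retrotransposon-derived gene Rtl1, Rian (which also carries small nucleolar RNAs) and Mirg, while the protein-coding genes Dlk1, Rtl1 and Dio3 are expressed from the paternal one. The microRNAs lie along these transcripts in one of the largest mammalian microRNA clusters, and a hairpin precursor can yield a mature microRNA from each of its arms, called 5p and 3p. They are abundant in embryo, placenta and brain, and are known to be low in healthy adult liver.

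The 60 names belong to 40 hairpins, all on the plus strand within 180104 bp at chr12:109563692-109743795 (RefSeq, GRCm38.p6). The Meg3 side holds 13 hairpins and 24 names at chr12:109563692-109618336. There, Mir770 lies in an exon of Meg3, 5 hairpins (Mir431, Mir433, Mir127, Mir434 and Mir136) lie opposite an exon of Rtl1, and Mir341 and Mir370 lie in introns of Rian. The Mirg side holds 27 hairpins and 36 names at chr12:109709060-109743795. Of these, 9 lie in the annotated Mirg gene, 3 of them in introns (Mir154, Mir541 and Mir409), and the 18 from Mir379 to Mir539 lie upstream of it. The sides are separated by 90723 bp between Mir370 and Mir379, the largest gap between neighbouring hairpins.

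The members that carried most of the signal, or that differed in direction, are given below from RefSeq (GRCm38.p6), 5′ to 3′, with the seed in capitals (bases 2 to 8, which pair with target messenger RNAs). The prefix mmu (Mus musculus) is left out of the names elsewhere. The first set comes from the Meg3 side.
mmu-miR-127-3p: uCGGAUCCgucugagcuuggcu
mmu-miR-434-5p: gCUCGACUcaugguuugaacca
mmu-miR-434-3p: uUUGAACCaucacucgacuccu
mmu-miR-136-5p: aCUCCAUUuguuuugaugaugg
mmu-miR-136-3p: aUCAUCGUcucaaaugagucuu
mmu-miR-341-3p: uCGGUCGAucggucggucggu

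The second set comes from the Mirg side and includes both arms of the neighbouring hairpins Mir379 and Mir411, which resemble each other.
mmu-miR-379-5p: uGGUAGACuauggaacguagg
mmu-miR-379-3p: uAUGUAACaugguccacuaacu
mmu-miR-411-5p: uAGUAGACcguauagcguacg
mmu-miR-411-3p: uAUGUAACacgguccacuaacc
mmu-miR-300-3p: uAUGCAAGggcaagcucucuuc
mmu-miR-381-3p: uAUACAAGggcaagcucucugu
mmu-miR-541-5p: aAGGGAUUcugauguuggucacacu
mmu-miR-409-3p: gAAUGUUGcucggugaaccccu
mmu-miR-410-3p: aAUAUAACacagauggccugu

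A mature sequence was matched for 57 of the 60 names. These carried 56 different seeds, so the members hardly formed seed families. The single pair with a common seed was miR-379-3p and miR-411-3p, whose sequences were the same at 20 of 22 bases. Their opposite arms, miR-379-5p and miR-411-5p, were the same at 14 of 21 bases. miR-300-3p and miR-381-3p were the same at 19 of 22 bases but had different seeds. Reads from such pairs can be assigned to either copy if mismatches are allowed, and how they were assigned is not given in the sources used here. The median share of A and U bases was 43.2% over 24 sequences of the Meg3 side, 54.5% over 33 of the Mirg side and 47.8% over 1679 mature mouse microRNAs.

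Experiment 1 holds counts, with totals of 4170601 (pair-fed) and 4311802 (ethanol-fed) microRNA reads. A count of 0 allows up to 0.719 and 0.696 reads per 1000000 microRNA reads (RPM), respectively. Experiment 2 holds RPM, with steps between low values of 0.0925 RPM (pair-fed) and 0.0924 RPM (ethanol-fed). If 1 step is 1 read, the libraries had about 10812887 and 10820843 reads, and values under 10 reads were listed as 0, the lowest value above 0 being 0.92 RPM. For the liver label, miR-122-5p, the main hepatocyte microRNA, stood at 2971 RPM (pair-fed) and 2210 RPM (ethanol-fed) in experiment 1. In experiment 2 it stood at 182938 and 156660 RPM. Another microRNA of the liver parenchyma list, miR-192-5p, stood at 388161 and 373090 RPM and then at 117318 and 109724 RPM. Both were lower in the ethanol-fed library of each table, and the other 2 of the list were higher there. miR-194-5p stood at 1149 and 1208 RPM and then at 23768.5 and 24987.8 RPM. miR-802-5p stood at 121 and 135 RPM and then at 111 and 182 RPM. miR-122-5p was far below miR-192-5p in experiment 1 alone. Levels of the tables thus cannot be set against each other, and comparisons were made within a table. Intervals below are 95% counting intervals. They cover counting error only, since reads without molecular identifiers are not independent molecules.

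The region as a whole was higher in the ethanol-fed library of experiment 1 and lower in that of experiment 2. In experiment 1 the 60 names summed to 267 RPM when pair-fed and to 667 RPM when ethanol-fed, from 1115 and 2878 reads. The ethanol-fed sum was 2.50-fold higher (2.33 to 2.68). In experiment 2 the sum was 742 RPM (pair-fed) and 191 RPM (ethanol-fed), hence 3.88-fold lower (3.69 to 4.07). With 0.92 RPM in place of each 0 beside a listed value, it was 3.60-fold lower. Thus the direction reversed between the tables, and both intervals lay far from a ratio of 1. The region was a minor part of each library, at 0.0267% and 0.0667% of the microRNA reads in experiment 1 and at 0.0742% and 0.0191% in experiment 2 (pair-fed and ethanol-fed). Because whole liver was sequenced, fewer cells of a type and less RNA per cell cannot be told apart.

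**Figure D1:**
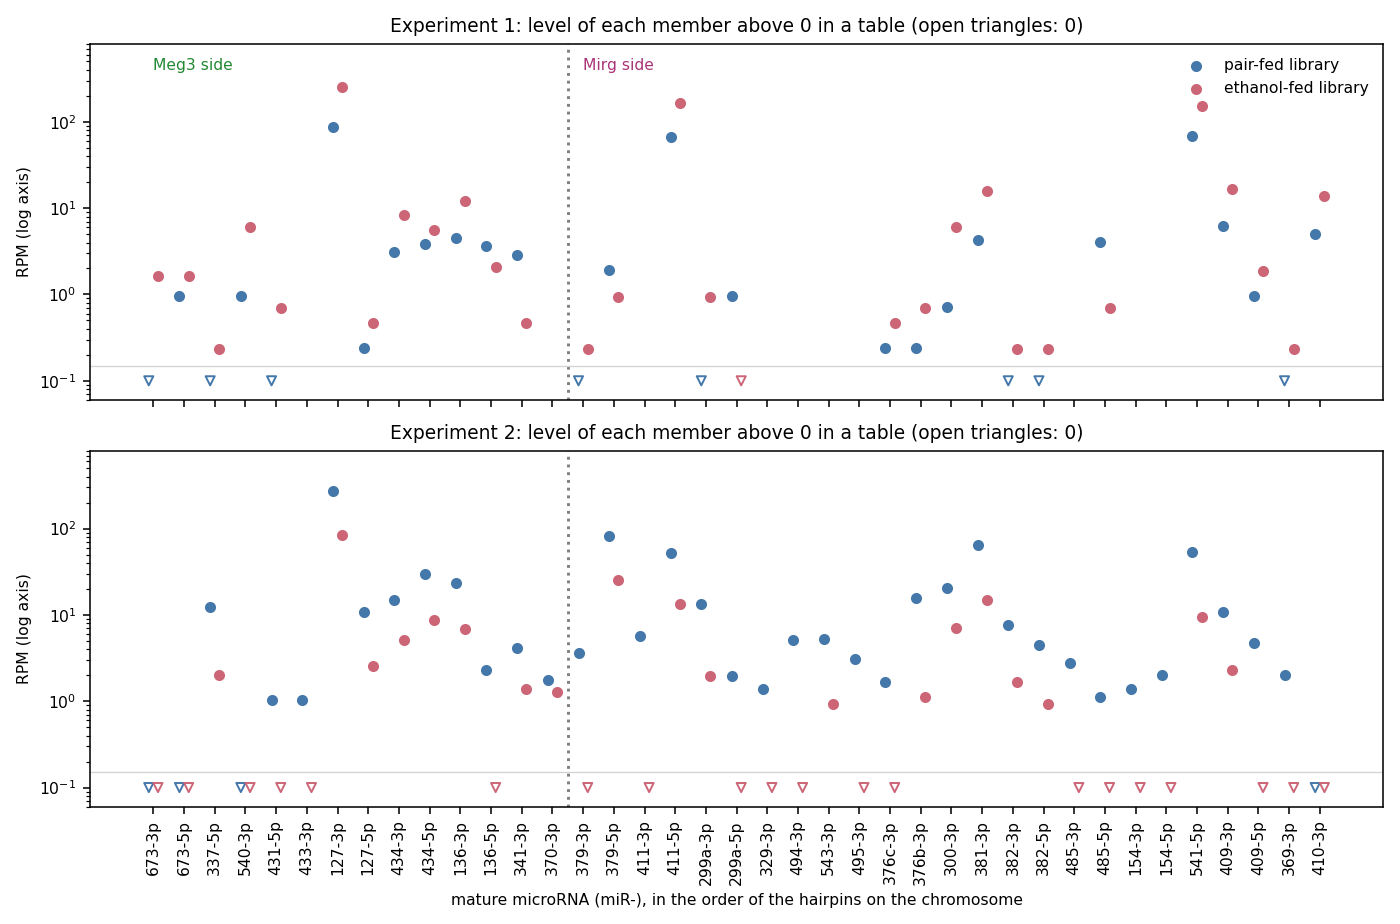
Levels of the region's members in each of the 4 libraries, in RPM on a log axis, with members in genome order, 1 point per library, open triangles for values of 0, and no error bars because each condition has 1 library per table. miR-127-3p was the highest member in all 4 libraries, above the pair-fed library in experiment 1 (88.0 and 253 RPM) and below it in experiment 2 (272 and 84.7 RPM).

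Red cell microRNAs moved in the same directions. The summed level of miR-486a-5p, miR-451a and both arms of miR-144 went from 11559 RPM (pair-fed) to 33915 RPM (ethanol-fed) in experiment 1. This sum was nearly all miR-486a-5p (11512 and 33721 RPM), with miR-451a at 25.7 and 133 RPM. By member, 4 of 4 were higher and 3 of 4 at least 2-fold, against 12.6% of all 302 microRNAs with at least 10 reads. In experiment 2 the sum went from 1826 to 1152 RPM. There 4 of 4 were lower and 0 of 4 at least 2-fold, against 15.1% of 469. The white cell list of 4 was lower in both experiments (404 and 335 RPM, then 872 and 463 RPM). The 6 mesenchymal microRNAs, which mark stellate cells and fibroblasts, summed to 96762 and 96396 RPM in experiment 1 and to 22408 and 27624 RPM in experiment 2. Of these, miR-145a-5p and miR-214-3p were at least 2-fold higher in experiment 1, against 12.6% of all 302 microRNAs with at least 10 reads. In experiment 2, 0 of 6 were, against 10.7% of 469. miR-214-3p, at 0.719 and 4.64 RPM in experiment 1, reached 10 reads there only through the ethanol-fed library. The sum in experiment 1 was nearly all miR-143-3p (96276 and 95735 RPM). By member, 5 of 6 were higher in the ethanol-fed library of experiment 1 and 3 of 6 in that of experiment 2. Of the 6, miR-199a-3p and miR-199b-3p had equal values in experiment 2 (2708 and 2842 RPM) and nearly equal ones in experiment 1. They cannot be taken as separate measurements in the counts and sums. The endothelial list, both arms of miR-126a, was 2 of 2 higher in both experiments (3854 and 5142 RPM, then 22335 and 26332 RPM). Of the 4 brain microRNAs, miR-124-3p and miR-9-3p were not listed or listed at 0 in the 4 libraries. miR-9-5p was higher in the ethanol-fed library of both experiments (1.44 and 2.32 RPM, then 2.96 and 6.65 RPM), and miR-128-3p stood at 6.23 and 8.81 RPM and then at 236 and 237 RPM. Of the 3 striated muscle microRNAs, miR-206-3p was not listed or listed at 0 in the 4 libraries. miR-133a-3p was higher in the ethanol-fed library of experiment 1 (0.480 and 4.17 RPM), and reached 10 reads there only through that library. It was also higher in experiment 2 (2.03 and 3.60 RPM), where the region was lower. miR-1a-3p was not listed in experiment 1 and stood at 69.9 and 111 RPM in experiment 2. The pancreatic list rested on miR-375-3p in experiment 1 (85.1 and 47.5 RPM), with miR-217-5p and miR-216a-5p not detected and miR-216b-5p at 0 and 0.928 RPM. In experiment 2, 4 of 4 pancreatic microRNAs were at least 2-fold higher in the ethanol-fed library, against 10.7% of all 469 microRNAs. Their sum went from 5.92 RPM to 113 RPM. Of these, miR-216a-5p (0 and 11.7 RPM) and miR-216b-5p (0 and 12.6 RPM) were listed only through the library in which they were higher. The size of their ratios is set by the added read. The part of other cells in the result was not tested.

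Members past 2-fold in these directions were counted and set beside the share of all microRNAs past it. In experiment 1, 17 of the 60 names had at least 10 reads over both libraries. After 1 read was added to each library, 10 of the 17 were at least 2-fold higher in the ethanol-fed library, against 12.6% of all 302 microRNAs and 9.82% of the 285 that are not members, and 2 were at least 2-fold lower, against 12.9%. Their median log2 ratio (ethanol-fed to pair-fed) was 1.31, beside -0.01 over all 302. Of the 10 higher, miR-540-3p (4 and 26 reads) and miR-300-3p (3 and 26 reads) reached the minimum only through the ethanol-fed library. The 2 lower, miR-341-3p (12 and 2 reads) and miR-485-5p (17 and 3 reads), reached it only through the pair-fed one. In experiment 2, 35 names were above 0 in at least 1 library. Of these, 34 were at least 2-fold lower, against 15.1% of all 469 microRNAs and 8.53% of those that are not members, and 0 were at least 2-fold higher, against 10.7%. The remaining member, miR-370-3p of the Rian intron, stood at 1.76 and 1.29 RPM. With 0.92 RPM in place of each 0, 28 of 35 were lower by at least 2-fold.

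The 34 included 16 names listed at 0 in the ethanol-fed library, at 1.02 to 5.73 RPM in the pair-fed one, which were listed only through the library in which they were higher. For these the size of the ratio is set by the added read, so that they count as lower here but no fold change is quoted. Restricted to names above 0 in both libraries, 18 of 19 members were at least 2-fold lower, against 8.71% of all such microRNAs. At 100 reads or more over both libraries, 15 of 15 members were lower, with log2 ratios between -3.74 and -1.52, against 8.05% of all 298 such microRNAs. Of these members, miR-127-3p, miR-379-5p, miR-411-5p, miR-381-3p and miR-541-5p had at least 100 reads in each library. The rest did not reach it in the ethanol-fed library, so they passed mainly through the library in which they were higher. In experiment 1 at the same depth, 3 of 3 members were higher (1.15 to 1.52), against 6.33% of 158.

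**Figure D2:**
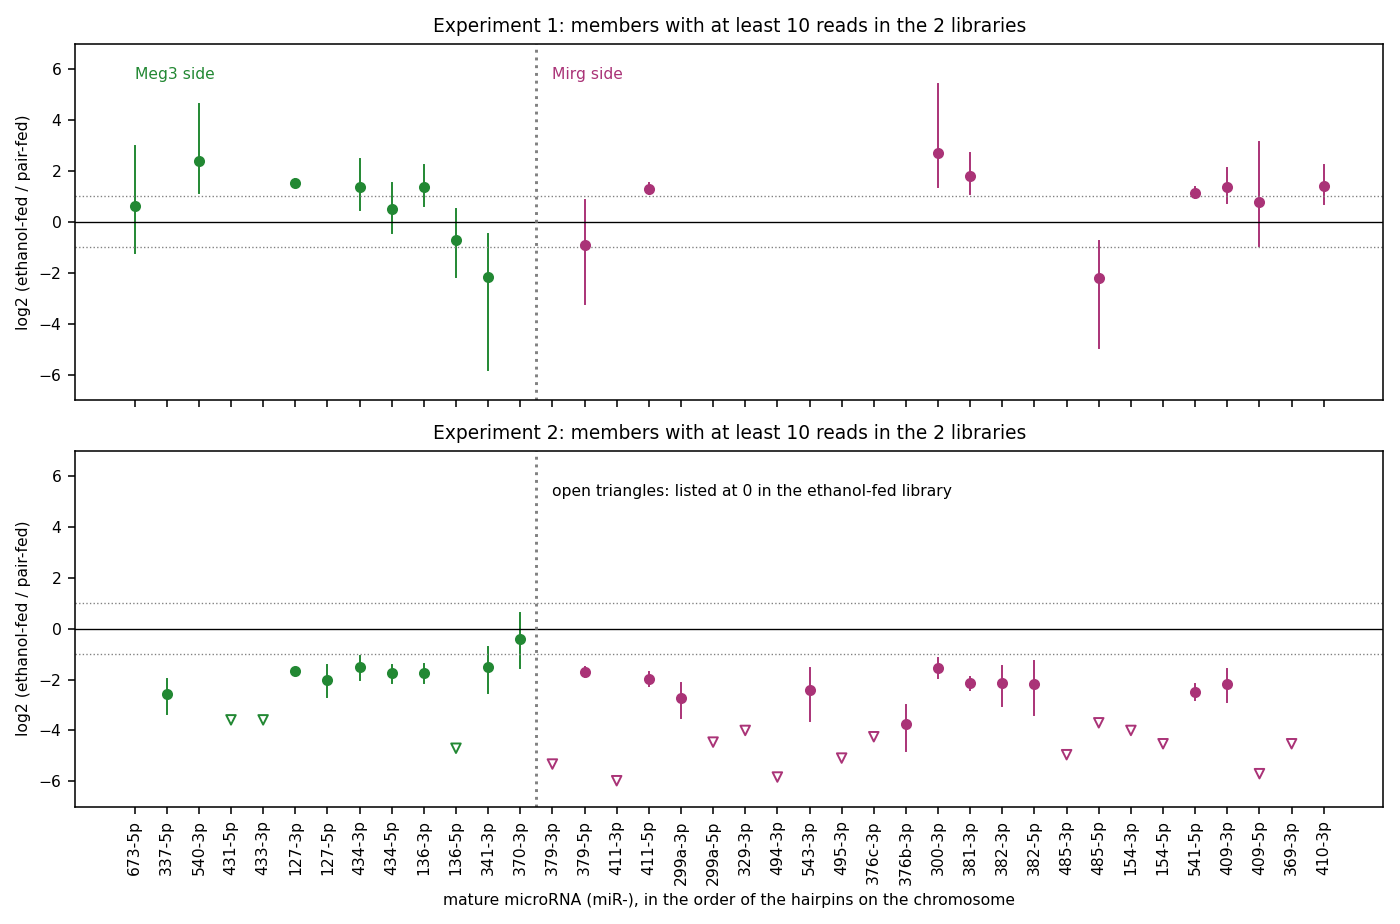
Log2 ratio (ethanol-fed to pair-fed) for members with at least 10 reads in a table, in genome order from Meg3 to Mirg, with 95% counting intervals as bars, dotted lines at 2-fold, and open triangles without a bar, whose height is set by the added read, for names listed at 0. In experiment 1, 13 of 17 points lay above 0, whereas in experiment 2 the 35 points lay below it, 16 of them from names listed at 0 in the ethanol-fed library.

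Of the Meg3 side, the hairpins opposite Rtl1 gave nearly all reads, and their microRNAs are antisense to the Rtl1 messenger RNA. miR-127-3p, which can direct cleavage of that messenger, had 367 and 1092 reads in experiment 1, pair-fed first (88.0 and 253 RPM), a log2 ratio of 1.52 (1.35 to 1.70). In experiment 2 it stood at 272 and 84.7 RPM, a log2 ratio of -1.68 (-1.79 to -1.58). In order of level among the microRNAs above 0 it was number 88 of 395 and number 64 of 436 in experiment 1, and number 91 of 438 and number 130 in experiment 2, again with the pair-fed library first. It was the highest member in each of the 4 libraries.

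miR-136-3p had 19 and 52 reads (log2 ratio 1.36, 0.62 to 2.25) in experiment 1 and 23.4 and 6.93 RPM (-1.74, -2.15 to -1.38) in experiment 2. miR-434-3p had 13 and 36 reads (1.35, 0.47 to 2.46) and then 14.8 and 5.08 RPM (-1.52, -2.01 to -1.09). Both reversed between the tables like miR-127-3p, with intervals clear of 0 on either side. Their partner arms did so less clearly. miR-434-5p had 16 and 24 reads (0.51, -0.44 to 1.55) in experiment 1, within counting error of no difference, and 30.0 and 8.78 RPM (-1.76, -2.12 to -1.44) in experiment 2. miR-136-5p had 15 and 9 reads (-0.73, -2.16 to 0.50), and went from 2.31 RPM to a listed 0 in experiment 2.

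The ends of the Meg3 side were near the limit of detection. Of the hairpins upstream of Rtl1, experiment 1 held reads of Mir673, Mir337 and Mir540, 8 (pair-fed) and 41 (ethanol-fed) in all. miR-540-3p made up most of these, with 4 and 26 reads (2.38, 1.13 to 4.63), and was listed at 0 in experiment 2. There, miR-337-5p was the only one of these names above 0, at 12.5 and 2.03 RPM (-2.56, -3.34 to -1.96), with 0 and 1 reads in experiment 1. In the Rian introns, miR-341-3p was lower in both tables, with 12 and 2 reads (-2.16, -5.83 to -0.47) and with 4.16 and 1.39 RPM (-1.52, -2.54 to -0.72).

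On the Mirg side, the hairpins upstream of the Mirg gene were led by the Mir379 and Mir411 pair. miR-411-5p had 278 and 712 reads in experiment 1 (66.7 and 165 RPM), a log2 ratio of 1.31 (1.11 to 1.51), and 52.4 and 13.4 RPM in experiment 2, a log2 ratio of -1.96 (-2.24 to -1.70). miR-379-5p, from the next hairpin upstream, behaved otherwise in experiment 1, with 8 and 4 reads (-0.90, -3.23 to 0.85). In experiment 2 it was the second most abundant member, at 83.0 and 25.3 RPM (-1.71, -1.91 to -1.52). miR-379-5p was thus far below its neighbour in both libraries of experiment 1 and above it in both libraries of experiment 2.

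miR-381-3p had 18 and 68 reads (1.81, 1.10 to 2.71) in experiment 1, and 65.1 and 14.7 RPM (-2.14, -2.41 to -1.90) in experiment 2. miR-300-3p, of closely similar sequence, had 3 and 26 reads (2.71, 1.36 to 5.44), and 20.6 and 7.02 RPM (-1.54, -1.95 to -1.17). Both were thus higher in the ethanol-fed library of experiment 1 and lower in that of experiment 2. miR-376b-3p, a member of the miR-376 family, had the lowest log2 ratio of the members above 0 in both libraries of experiment 2, -3.74 (-4.82 to -3.0), at 15.9 and 1.11 RPM, and had 1 and 3 reads in experiment 1. miR-299a-3p stood at 13.4 and 1.94 RPM in experiment 2 and had 0 and 4 reads in experiment 1. It cannot be separated from miR-299b-3p (13.0 and 1.94 RPM), whose 18 bases are contained in its 22.

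Within the Mirg gene, miR-541-5p had 283 and 652 reads in experiment 1 (67.9 and 151 RPM), a log2 ratio of 1.15 (0.95 to 1.36), and 53.4 and 9.43 RPM in experiment 2, a log2 ratio of -2.49 (-2.82 to -2.20). miR-409-3p, from the hairpin next to it among the members, had 26 and 72 reads (1.39, 0.76 to 2.13) and 10.7 and 2.31 RPM (-2.17, -2.90 to -1.58). Both intron-derived microRNAs reversed between the tables. miR-410-3p, the last member, had 21 and 59 reads (1.40, 0.70 to 2.24), number 5 among the members of the pair-fed library of experiment 1, yet was listed at 0 in both libraries of experiment 2. miR-485-5p was an exception in the other direction, with 17 and 3 reads (-2.22, -4.96 to -0.76) in experiment 1 and 1.11 RPM and a listed 0 in experiment 2. miR-382-3p and miR-382-5p had 0 and 1 reads each in experiment 1, and stood at 7.68 and 1.66 RPM (-2.15) and at 4.44 and 0.92 RPM (-2.16) in experiment 2.

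The sides were compared by their sums, which need no minimum. In experiment 1 the Meg3 side went from 108 RPM (pair-fed) to 292 RPM (ethanol-fed), a log2 ratio of 1.44 (1.28 to 1.59), and the Mirg side from 159 to 375 RPM, a log2 ratio of 1.24 (1.10 to 1.37). These intervals overlapped. In experiment 2 the Meg3 side went from 374 to 113 RPM, a log2 ratio of -1.73 (-1.82 to -1.64), and the Mirg side from 369 to 78.7 RPM, a log2 ratio of -2.23 (-2.34 to -2.12). There the Mirg side was further down beyond counting error, and with 0.92 RPM in place of each 0 its ratio was -2.02 beside -1.69. The Meg3 side accordingly held a larger share of the region's reads in the ethanol-fed library of both tables. The share was 40.4% (37.6 to 43.4) when pair-fed and 43.8% (42.0 to 45.6) when ethanol-fed in experiment 1, with overlapping intervals, and 50.3% (49.2 to 51.4) and 58.9% (56.7 to 61.0) in experiment 2. Whether these shares differ beyond the spread between animals could not be tested. In experiment 1 the larger share rested on miR-127-3p. Without it, the log2 ratio of the Meg3 side was 0.96 (0.57 to 1.36), below that of the Mirg side with overlapping intervals. In experiment 2 it was -1.86 (-2.04 to -1.67) without miR-127-3p, still above that of the Mirg side.

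By member, 4 of 8 on the Meg3 side and 6 of 9 on the Mirg side were at least 2-fold higher in experiment 1. In experiment 2, among members above 0 in both libraries, 7 of 8 and 11 of 11 were at least 2-fold lower, against 8.71% of all 402 such microRNAs. Their median log2 ratios were -1.71 and -2.16, beside 0.01 over the 402.

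Hairpins were grouped into 5 stretches by host transcript or, for Mir770 to Mir665 and Mir379 to Mir539, by position. Of these stretches, 4 of 5 were higher in the ethanol-fed library of experiment 1 and all 5 were lower in experiment 2. The hairpins upstream of Rtl1 had log2 ratios of 2.31 (1.20 to 3.61) and -2.62 (-3.34 to -1.96), from 8 and 41 reads in experiment 1. Those opposite Rtl1 had 1.45 (1.29 to 1.61) and -1.72 (-1.81 to -1.62). The hairpins in Rian differed, at -2.63 (-5.83 to -0.47) from 12 and 2 reads of miR-341-3p alone, and at -1.14 (-1.83 to -0.49) in experiment 2. Those from Mir379 to Mir539 had 1.34 (1.15 to 1.53) and -2.11 (-2.23 to -1.99), and those in the Mirg gene 1.14 (0.95 to 1.32) and -2.66 (-2.91 to -2.41), the latter -2.19 with 0.92 RPM in place of each 0. The signs were thus opposite in each stretch but Rian. In the stretch upstream of Rtl1 they came from different microRNAs, since miR-540-3p and the arms of miR-673 were listed at 0 in experiment 2 and miR-337-5p had 0 and 1 reads in experiment 1. The level of the Rian hairpins was the lowest or next to the lowest of the 5 in every library.

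The sums did not rest on 1 abundant member. Without miR-127-3p the region's log2 ratio was 1.21 (1.08 to 1.33) in experiment 1 and -2.14 (-2.23 to -2.05) in experiment 2. Without the 5 names that were among the 3 most abundant of either pair-fed library (miR-127-3p, miR-411-5p, miR-541-5p, miR-379-5p and miR-381-3p), it was 1.07 (0.80 to 1.35) and -2.30 (-2.44 to -2.16).

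**Figure D3:**
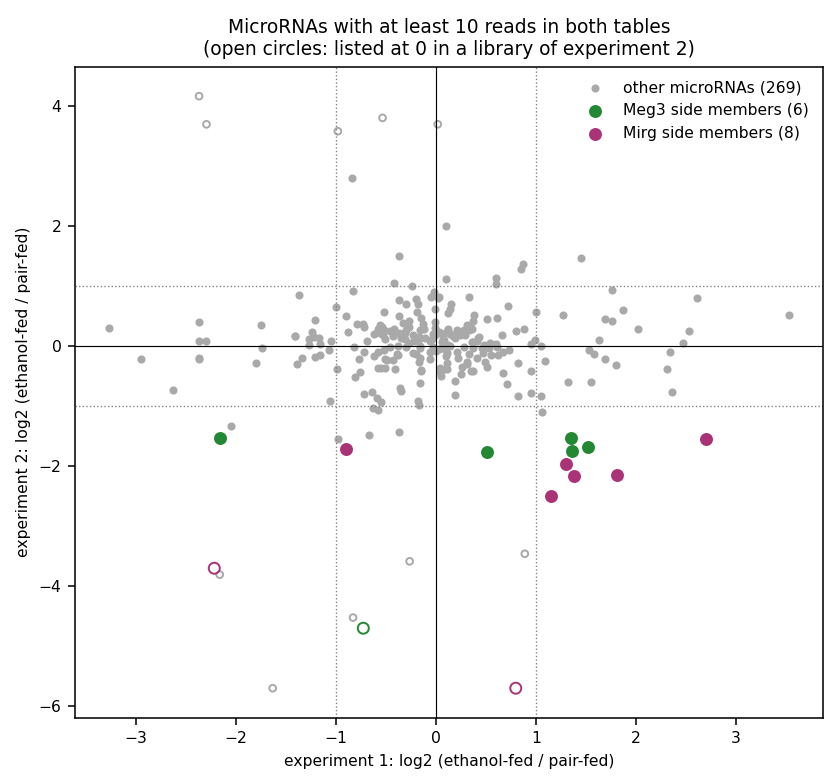
Log2 ratio (ethanol-fed to pair-fed) in experiment 1 (horizontal) against experiment 2 (vertical) for 283 microRNAs with at least 10 reads in both tables, with dotted lines at 2-fold and open circles for names listed at 0 in a library of experiment 2. The 14 members (6 of the Meg3 side and 8 of the Mirg side) lay below the horizontal line, 8 of them in the lower right corner beyond both 2-fold lines.

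The tables were set side by side for the 14 members with at least 10 reads in both. Of these, 8 were at least 2-fold higher in experiment 1 and at least 2-fold lower in experiment 2, namely miR-127-3p, miR-434-3p, miR-136-3p, miR-411-5p, miR-300-3p, miR-381-3p, miR-541-5p and miR-409-3p. Among all 283 microRNAs so measured, 9 (3.18%) showed this pattern, and the ninth was miR-149-5p, from another chromosome, at 1.07 and -1.09. Of the 8 members, miR-300-3p reached the minimum in experiment 1 only through the ethanol-fed library (3 and 26 reads). miR-341-3p was at least 2-fold lower in both tables. miR-485-5p was at least 2-fold lower in experiment 1, but in experiment 2 its call rests on the listed 0, and with 0.92 RPM in that place its log2 ratio was -0.25. In all, 0 members were higher in both tables. The other 4 (miR-434-5p, miR-136-5p, miR-379-5p and miR-409-5p) differed by less than 2-fold in experiment 1.

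**Figure D4:**
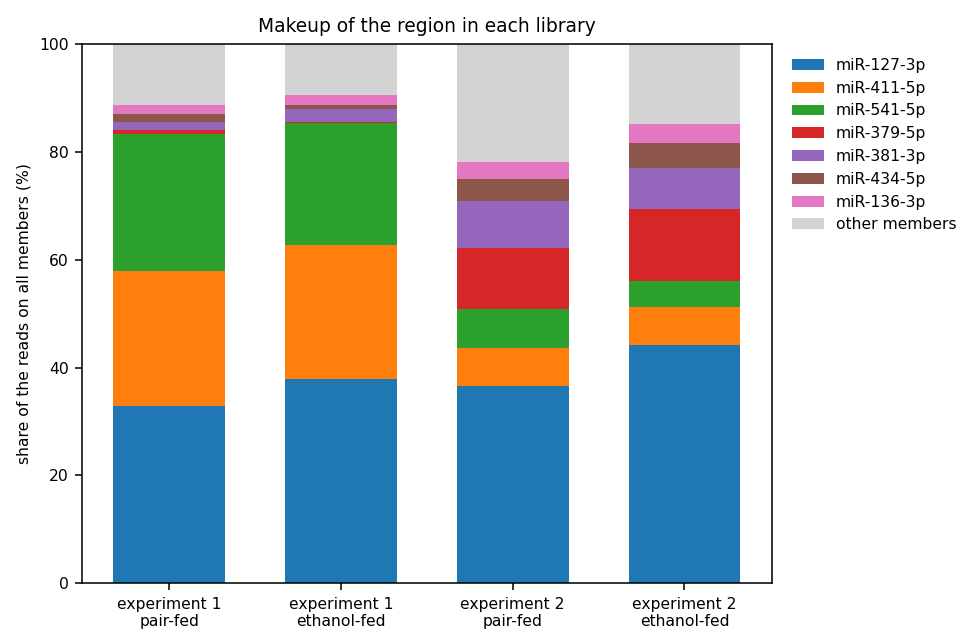
Share of the region's reads held by its leading members in each of the 4 libraries, in percent, as stacked bars. miR-127-3p took the largest share in each library, and miR-411-5p took 24.9% and 24.7% in experiment 1 but 7.07% and 7.0% in experiment 2.

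For 4 of the 5 leading members, the share within the region was set apart by the table more than by the diet. The exception, miR-127-3p, held 32.9% and 37.9% of the region's reads in experiment 1 and 36.6% and 44.2% in experiment 2 (pair-fed and ethanol-fed). miR-411-5p held 24.9% and 24.7%, then 7.07% and 7.0%. miR-541-5p held 25.4% and 22.7%, then 7.19% and 4.92%. Conversely, miR-379-5p held 11.2% and 13.2% in experiment 2 but 0.717% and 0.139% in experiment 1, and miR-381-3p held 8.77% and 7.67% in experiment 2 but 1.61% and 2.36% in experiment 1. The leading 3 of the pair-fed library in experiment 1 were miR-127-3p, miR-541-5p and miR-411-5p, and in experiment 2 miR-127-3p, miR-379-5p and miR-381-3p.

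The arms of a hairpin come from 1 precursor, so their shares within a library need no scaling. Of the 20 hairpins with both arms among the members, 5 had at least 10 reads in each library of experiment 1, and 1 of them, Mir136, had intervals that did not overlap between the libraries. Its 3p arm held 55.9% (39.5 to 71.1) of 34 reads when pair-fed and 85.2% (74.3 to 92.0) of 61 reads when ethanol-fed. In experiment 2 it held 91.0% (87.1 to 93.8) in the pair-fed library, and at least 89.3% in the ethanol-fed one if the 5p arm, listed at 0, had 9 reads. In experiment 2 the range left by the listed 0 thus overlapped the pair-fed interval.

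For Mir127, Mir434 and Mir409, intervals overlapped between the libraries of a table where both had a value. Mir127 was almost wholly 3p, at 99.7% and 99.8% of 368 and 1094 reads in experiment 1, and at 96.2% (95.5 to 96.8) and 97.0% (95.7 to 97.9) in experiment 2. Mir434 used both arms, with a 3p share of 44.8% (28.4 to 62.5) and 60% (47.4 to 71.4) in experiment 1 and of 33.1% (29.0 to 37.4) and 36.7% (29.4 to 44.6) in experiment 2. Mir409 had 86.7% (70.3 to 94.7) and 90% (81.5 to 94.8) from its 3p arm in experiment 1, and in experiment 2 had 69.5% (62.1 to 75.9) when pair-fed, while the ethanol-fed library listed its 5p arm at 0.

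Mir411 gave 5p reads alone in experiment 1, where miR-411-3p was not listed beside 278 and 712 reads of miR-411-5p, with upper bounds of the 3p share of 1.36% and 0.537%. In the pair-fed library of experiment 2 its 3p share was 9.86% (7.77 to 12.4), with miR-411-3p at 5.73 RPM, and in the ethanol-fed library miR-411-3p was listed at 0, where 9 reads would have been 5.84%. Its neighbour Mir379 had a pair-fed 3p share of 4.17% (3.06 to 5.65) in experiment 2, and miR-379-3p was likewise listed at 0 in the ethanol-fed library, where 9 reads would have been 3.18%. The 2 microRNAs with a common seed were therefore both the minor arms of their hairpins. Mir382 had a 3p share of 63.4% (54.8 to 71.1) and 64.3% (45.8 to 79.3) in experiment 2. Mir299a had a pair-fed share of 87.3% (81.4 to 91.6), and Mir337 gave miR-337-5p alone in that table.

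**Figure D5:**
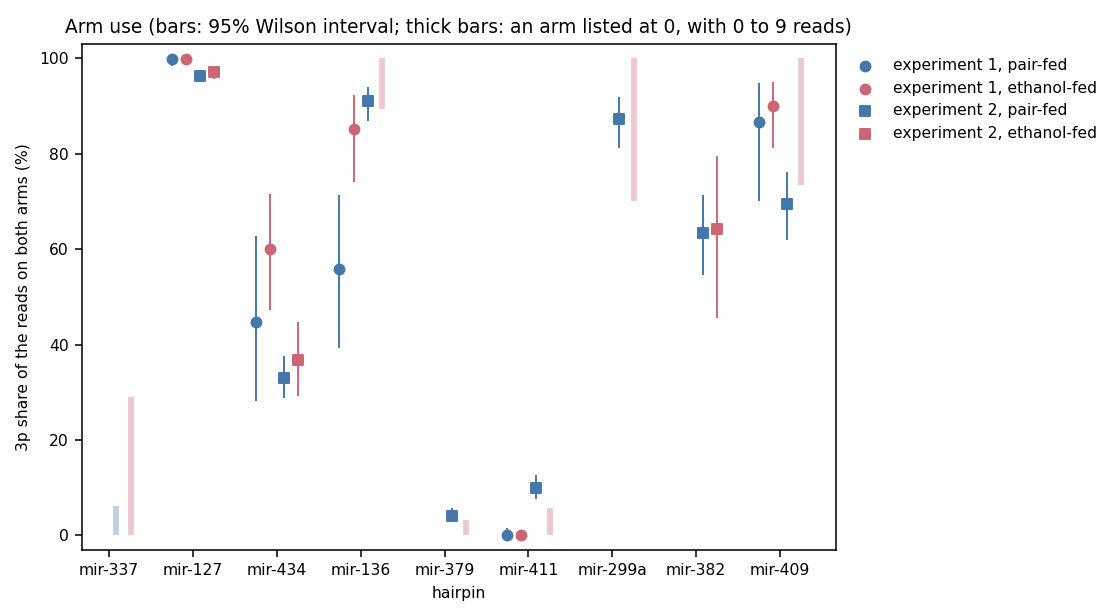
Share of reads from the 3p arm of each hairpin in the 4 libraries, in percent, with 95% Wilson intervals as thin bars and, as thick bars, the range where an arm listed at 0 could have 0 to 9 reads. Mir127 stayed above 96% throughout, whereas Mir136 was at 55.9% in the pair-fed library of experiment 1 and at 85.2% or more in the other libraries with a value.

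The remaining members were scarce. In all, 25 members were above 0 in both tables. Those above 0 in experiment 1 alone were miR-673-3p (0 and 7 reads), miR-673-5p (4 and 7 reads), miR-540-3p and miR-410-3p. Those above 0 in experiment 2 alone were miR-433-3p, miR-370-3p, miR-411-3p, miR-329-3p, miR-494-3p, miR-543-3p, miR-495-3p, miR-485-3p, miR-154-5p and miR-154-3p, at 1.02 to 5.73 RPM in the pair-fed library. Of these 10, miR-370-3p and miR-543-3p (5.27 and 0.92 RPM) were above 0 in the ethanol-fed library. The other 21 were above 0 in neither table, namely both arms of miR-770, miR-493 and miR-380, and miR-337-3p, miR-540-5p, miR-665-3p, miR-431-3p, miR-433-5p, miR-341-5p, miR-323-3p, miR-758-3p, miR-376a-3p, miR-487b-3p, miR-539-5p, miR-377-3p, miR-369-5p, miR-668-3p and miR-667-3p. At these depths they were not detectable, which does not show that they were absent.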

How the data were processed

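The values that the authors deposited are the unnormalized count of reads per mature microRNA in experiment 1. In experiment 2 they are RPM as scaled by the authors, whose columns sum to about 1000000. That table repeats both columns and also holds the authors' log2 fold changes and p-values, which were not used. Columns were assigned to conditions by their names. The submitters' processing notes name the mouse build mm8, and the tables hold no coordinates. The aligner, annotation and filters are not given in the sources used here.

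Reads were scaled to the total on microRNAs. In experiment 2, reads were estimated from the step between low values, which placed 98.0% of 296 pair-fed and 97.3% of 291 ethanol-fed values under 60 RPM within 0.1 read of a whole number. Since the values are RPM, no count model was fitted. Log2 ratios of single members were taken after 1 read was added per library, which understates the change of scarce members in experiment 1. A listed 0 of experiment 2 can stand for up to 9 reads, so the added read can overstate the change there. For miR-485-5p the log2 ratio was -3.70 with the added read and -0.25 with 0.92 RPM in place of the 0. A microRNA with at least 10 reads over both libraries of a table was called at 2-fold. Intervals of ratios were exact (Clopper-Pearson) and those of shares Wilson, both at 95%. Only those of ratios were tested on simulated data, for unchanged microRNAs with counting error alone. In experiment 2 intervals rest on the estimated reads.

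The members and lists were chosen with earlier results of these data known. Members named in the text were the 5 highest of each pair-fed library, those at least 2-fold different with at least 100 reads or in both tables, both arms of hairpins with at least 100 reads, and, as lists, those above 0 in 1 table. miR-543-3p and miR-149-5p were named after their values were seen. Alternatives were other scalings, minimums and pseudocounts, zeros of experiment 2 at the lowest value, summed arms, the Rian hairpins left out and the most abundant member left out. Sums for the hairpins of each host transcript or stretch, and without the 5 most abundant members, were chosen after seeing the data. Names and positions came from RefSeq (GRCm38.p6) and host genes from GENCODE vM21. Figures were drawn with matplotlib 3.10.9, and values computed with scipy 1.17.1, pandas 2.3.3 and numpy 2.4.6 in Python 3.11.15.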

Additional observations from a re-analysis of the deposited data

Results flagged for a closer look

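Both sides of the region and 8 members differed between the libraries in opposite directions in the 2 tables. The summed log2 ratio (ethanol-fed to pair-fed) was 1.44 in experiment 1 and -1.73 in experiment 2 for the Meg3 side, and 1.24 and -2.23 for the Mirg side. On the Meg3 side, the log2 ratios were 1.52 and -1.68 for miR-127-3p, 1.35 and -1.52 for miR-434-3p, and 1.36 and -1.74 for miR-136-3p. On the Mirg side, they were 1.31 and -1.96 for miR-411-5p, 2.71 and -1.54 for miR-300-3p, 1.81 and -2.14 for miR-381-3p, 1.15 and -2.49 for miR-541-5p, and 1.39 and -2.17 for miR-409-3p. With 1 library per condition in each table, the difference was not tested.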

How the results depend on the processing

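No paired analysis was possible because each condition has 1 library in each table, and for the same reason no library could be left out. The sums kept their direction under each alternative. Without miR-127-3p, the Meg3 side had log2 ratios of 0.96 (experiment 1) and -1.86 (experiment 2), and without miR-379-5p the Mirg side had -2.42 in experiment 2. With zeros at the lowest listed value it had -2.02. At a minimum of 100 reads over both libraries, 3 of 3 members were at least 2-fold higher in experiment 1, against 6.33% of 158 microRNAs, and 0 were lower. In experiment 2, 15 of 15 were at least 2-fold lower, against 8.05% of 298. Most of the 15 passed mainly through the pair-fed library, in which they were higher. The median of the Mirg side in experiment 2 rests on names listed at 0. It was -3.87 as tested, -2.93 with arms summed, -2.15 at 100 reads, -7.08 with a pseudocount of 0.1 read and -1.92 with zeros at the lowest listed value. Of 208 alternative values of single members, 0 changed sign and 12 moved, all of them names of experiment 2 listed at 0 in the ethanol-fed library. No scaling shifted the median of all microRNAs by more than 0.05. Below 10 reads, experiment 2 cannot show a difference.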

Other observations

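RefSeq places 56 other mature microRNA names between Dlk1 and Dio3. In experiment 2, 8 of them were above 0, of which 3 were listed at 0 in the ethanol-fed library and so were listed only through the library in which they were higher. Of the 5 above 0 in both libraries, 3 were at least 2-fold lower in the ethanol-fed library, against 8.71% of all such microRNAs, and 1 of the 3 was miR-299b-3p, whose sequence is contained in that of the member miR-299a-3p. The other 2 were miR-329-5p, at 3.33 and 1.02 RPM, and miR-134-5p. miR-134-5p, of the Mirg side, stood at 9.34 and 3.88 RPM and had 1 and 2 reads in experiment 1. The exceptions were the arms of miR-1247, whose hairpin lies beside Dio3 on the minus strand. miR-1247-5p had 51 and 181 reads in experiment 1, a log2 ratio of 1.76 (1.32 to 2.26), and 2.22 and 4.34 RPM in experiment 2, a log2 ratio of 0.94 (0.23 to 1.74). miR-1247-3p had 216 and 370 reads (0.73, 0.48 to 0.98), and 1.48 and 2.40 RPM (0.67, -0.25 to 1.70). Both arms were thus higher in the ethanol-fed library of both tables, and the 3p arm of experiment 2 was within counting error of no difference.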
